A study of Mus musculus with 12 samples.

Results

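The troponins and tropomyosins are the regulatory proteins of the thin filament, and 10 of their genes were examined: Tnnt1, Tnnt2 and Tnnt3 (troponin T), Tnni1, Tnni2 and Tnni3 (troponin I), Tnnc1 and Tnnc2 (troponin C), and the tropomyosins Tpm1 and Tpm2. Every probe set that the annotation of the Affymetrix Mouse 430A 2.0 array maps to these symbols was used, which gave 18 of the 22626 probe sets tested and 10 of 12393 genes with 1 symbol. Of the 10 genes, 4 were read by more than 1 probe set. The cells were C57BL/6 mouse embryonic fibroblasts (MEFs), in which lentiviruses deliver transcription factors that are switched on by M2rtTA, a doxycycline-dependent activator. All 4 groups carried M2rtTA and received doxycycline for 7 days, in medium that, per the study's methods, also held valproic acid and extra serum. The negative control had M2rtTA alone. TF group 1 added GATA4, TBX5 and MEF2C (3 factors), TF group 2 these with Mesp1 and SMARCD3 (5 factors), and TF group 3 all of these with MYOCD and SRF (7 factors). The vectors held human cDNAs except for Mesp1, and none of the 10 genes was itself delivered by a virus. Each group had 3 arrays, labelled as biological replicates, of total RNA from whole cultures that were divided from MEFs already carrying M2rtTA. The p-values therefore measure the spread between these arrays, and the labels do not say how far apart the replicates were grown.

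In striated muscle, tropomyosin lies along the actin filament and covers the sites that myosin binds. Troponin T ties the troponin complex to tropomyosin, troponin I holds the filament in its inhibited state, and troponin C binds calcium and releases that inhibition. Cardiac muscle uses Tnnt2, Tnnc1 and Tnni3, and the embryonic heart also uses Tnni1, which is otherwise the troponin I of slow skeletal muscle. Tnnt1 is the troponin T of slow skeletal muscle, and Tnnt3, Tnni2 and Tnnc2 belong to fast skeletal muscle. Tpm1 and Tpm2 differ from the troponins in that fibroblasts and smooth muscle make them too, as isoforms that arise by alternative promoters and splicing.

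Of the cardiac and slow troponins, Tnnt2 and Tnnc1 rose in every group of MEFs that received transcription factors, and the others rose in part. The fast skeletal troponins were not called in any comparison. The tropomyosins either fell or stayed under the fold threshold against the negative control. Against the negative control, the folds of Tnnt2 were 18.3, 21.4 and 58.0 in TF groups 1, 2 and 3, and those of Tnnc1 25.0, 23.7 and 48.0. Tnni1 rose most in TF groups 1 and 2, and its TF group 3 arrays overlapped the control. Tnnt1 rose in TF group 3 without being called in the other TF groups. Tnni3 was called higher in each TF group, but its signal was under 32 on 11 of the 12 arrays. A probe set was called when limma's Benjamini-Hochberg adjusted p over all 22626 probe sets was under 0.05 and the change was over 1.5-fold. In TF group 1, 5 of the 18 probe sets were called higher and 3 lower, where 13.6% and 9.06% of all probe sets were called higher and lower. In TF group 2 the counts were again 5 higher and 3 lower, against 13.7% and 9.98% of all probe sets. In TF group 3, 6 were called higher and 1 lower, against 13.6% and 9.36%. The median log2 change of the 18 probe sets was -0.34, -0.20 and -0.03 in the 3 TF groups, beside 0.06, 0.05 and 0.05 over all probe sets. The 3 comparisons share the same control arrays. The calls were spread over a few genes, since 2 of the probe sets called higher in each TF group read Tnnt2.

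The TF groups were also set against each other. None of the 18 probe sets was called between TF groups 2 and 1 by limma, where 1.7% of all probe sets were called higher and 1.57% lower, although 2 of the 18 had an unadjusted p under 0.05 and 1 an adjusted p under that threshold. Between TF groups 3 and 2, which differ by MYOCD and SRF, 5 were called higher and 1 lower, against 2.18% and 1.39% of all probe sets. Between TF groups 3 and 1, 5 were called higher and 1 lower, against 3.04% and 2.62%. The median log2 change of the 18 was 0.10, 0.38 and 0.41 in these comparisons, and -0.01 over all probe sets in each. The TF groups share arrays between these comparisons too, and each fold below is given on its own.

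**Figure D1:**
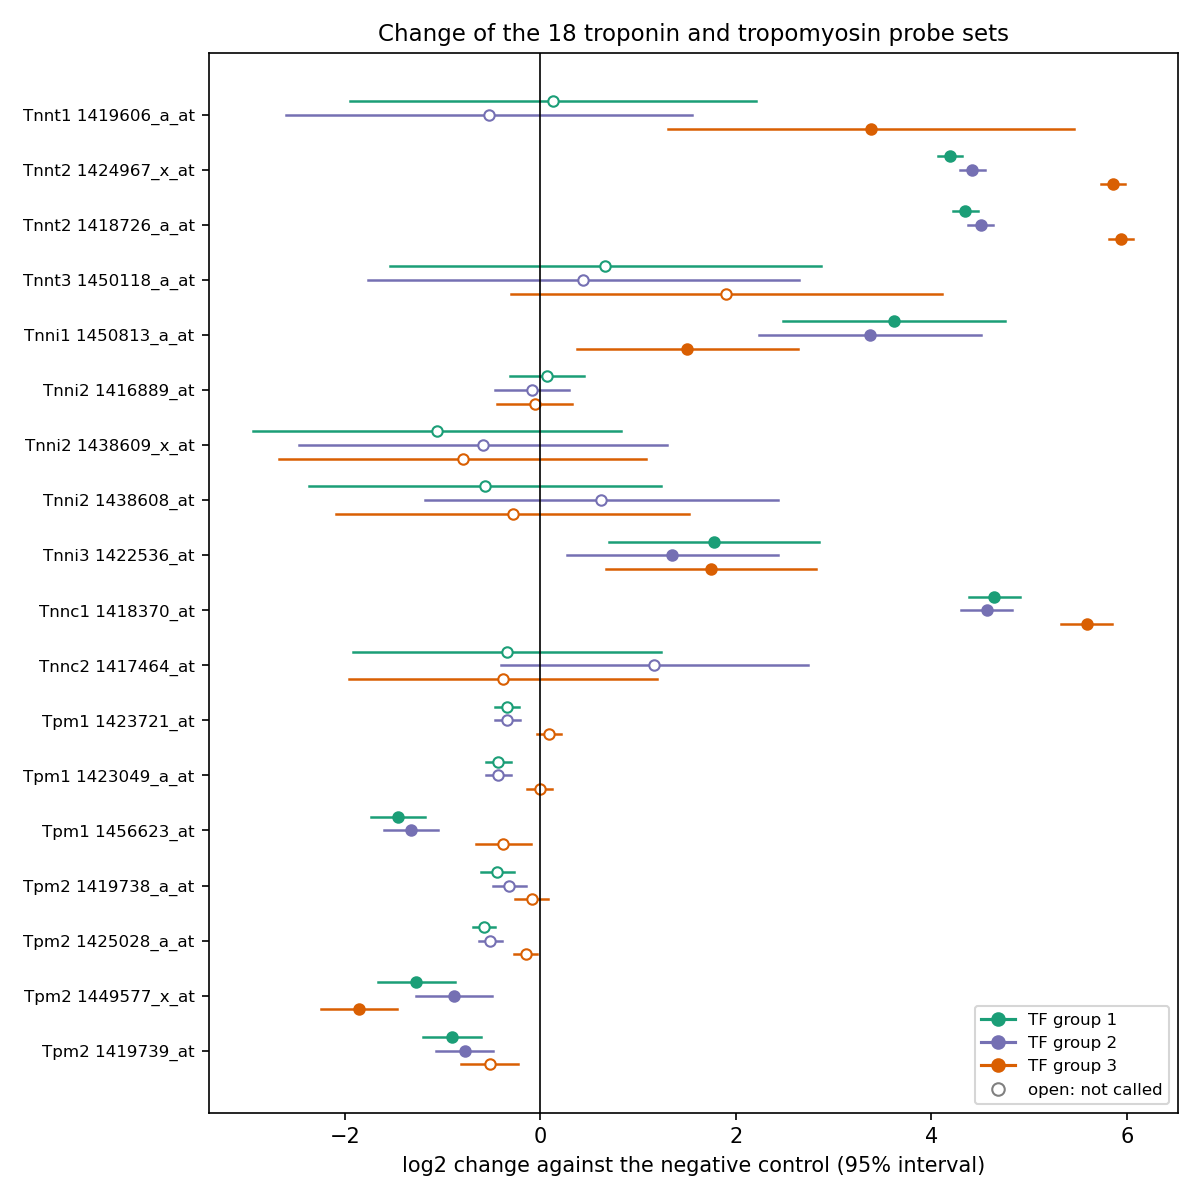
Log2 change of each of the 18 troponin and tropomyosin probe sets in TF groups 1, 2 and 3 against the negative control (points, limma estimates from 3 arrays a group; bars, 95% intervals; filled points, called). Tnnt2 and Tnnc1 lie between 4.19 and 5.94, the tropomyosin probe sets between -1.86 and 0.09, and the probe sets of the fast skeletal troponins have intervals that cross 0.

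Signals are given on the linear scale of the deposited values unless they are called log2. Probe sets under a signal of 32 (log2 of 5) varied widely between replicates, with a median SD of 0.90 on the log2 scale against 0.06 for those above a log2 signal of 11. This floor was chosen with the values known. A fold against a group whose mean lay under it is given as a lower bound, and no fold is given where both groups lay under it. Of the 18 probe sets, 10 were at or over the floor on all 12 arrays, 8 were under it on at least 1 array, and 3 were under it on all 12.

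RefSeq promoter windows were searched for binding motifs of the delivered factors and of muscle promoters in general. This was done because Tnnt2 and Tnnc1 rose in every TF group and most in TF group 3. Among the TF groups, Tnni1 was instead lowest in TF group 3, and Tnnt1 was above the floor in TF group 3 alone. A window covers 250 bases before to 50 bases after an annotated start, in build GRCm38.p6, and 10 windows of 8 of the genes were matched. The windows of Tnnt2 (both annotated starts), Tnnc1, Tnni1 (the first of its 2 overlapping windows) and Tnnt1 are printed here, 5′ to 3′ on the gene's strand, with capitals at every match to GATAA (GATA factors), AGGTGT (T-box factors) or CATTCC (the M-CAT element of muscle promoters) on either strand. They lie at chr1:135836084-135836383 and chr1:135836739-135837038 (both plus strand), chr14:31208062-31208361 (plus strand), chr1:135799171-135799470 (plus strand) and chr7:4515926-4516225 (minus strand).
Tnnt2, first window: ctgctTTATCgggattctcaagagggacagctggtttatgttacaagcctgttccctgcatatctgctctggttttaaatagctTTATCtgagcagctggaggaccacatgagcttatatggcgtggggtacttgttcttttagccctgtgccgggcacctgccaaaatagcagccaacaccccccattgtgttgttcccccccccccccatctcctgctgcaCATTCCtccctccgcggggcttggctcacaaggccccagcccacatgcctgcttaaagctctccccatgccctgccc
Tnnt2, second window: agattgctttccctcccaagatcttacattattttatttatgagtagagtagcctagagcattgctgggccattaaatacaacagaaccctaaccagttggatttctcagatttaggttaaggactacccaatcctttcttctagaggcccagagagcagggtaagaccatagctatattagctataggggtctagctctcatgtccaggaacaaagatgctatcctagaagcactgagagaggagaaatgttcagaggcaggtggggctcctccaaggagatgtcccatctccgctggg
Tnnc1: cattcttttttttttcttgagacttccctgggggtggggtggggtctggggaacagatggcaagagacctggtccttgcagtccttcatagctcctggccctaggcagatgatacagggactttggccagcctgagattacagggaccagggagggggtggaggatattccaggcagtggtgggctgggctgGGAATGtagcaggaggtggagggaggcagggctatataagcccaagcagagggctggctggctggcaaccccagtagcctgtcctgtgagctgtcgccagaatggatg
Tnni1: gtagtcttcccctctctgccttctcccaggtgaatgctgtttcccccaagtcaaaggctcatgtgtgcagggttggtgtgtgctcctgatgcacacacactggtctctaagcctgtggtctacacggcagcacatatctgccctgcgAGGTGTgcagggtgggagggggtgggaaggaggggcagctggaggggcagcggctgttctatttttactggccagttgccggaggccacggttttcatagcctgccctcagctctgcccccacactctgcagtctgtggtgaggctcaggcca
Tnnt1: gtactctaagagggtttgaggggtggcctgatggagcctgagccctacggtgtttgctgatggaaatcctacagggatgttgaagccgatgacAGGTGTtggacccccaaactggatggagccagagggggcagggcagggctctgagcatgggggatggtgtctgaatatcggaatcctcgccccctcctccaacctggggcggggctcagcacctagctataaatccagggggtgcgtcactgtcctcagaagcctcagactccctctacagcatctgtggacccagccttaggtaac

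The first Tnnt2 window held GATAA at 2 places on the opposite strand, with its first base 245 and 166 bases before the start site, and CATTCC with its first base 27 bases before it. The second Tnnt2 window held 0 matches to any of these motifs or to AGGTGT. The Tnnc1 window held CATTCC on the opposite strand, its first base in the window 58 bases before the start. Of the windows not printed, that of Tpm1, which did not rise, held CATTCC on the opposite strand, 56 bases before the start. That of Tnni3 held AGGTGT 201 bases before the start and GATAA at 2 places after it. Both Tnni1 windows and that of Tnnt1 each held AGGTGT, and in Tnnt1 the match overlaps an E-box (CANNTG). Over the 10 windows, GATAA was present in 2, AGGTGT in 4, CATTCC in 3 and CANNTG in 10, where 25.4%, 13.7%, 14.7% and 72.3% of all 32851 RefSeq windows hold them. The overlapping Tnni1 windows share 1 AGGTGT site, so that motif was present in 3 of the 8 genes. The CArG box, which SRF binds, and the MEF2 site were matched in 0 of the 10 windows and in 1.63% and 3.19% of all. These are matches of letters within short windows, and they show neither binding nor its absence.

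Tnnt2 is the troponin T of cardiac muscle and a defining gene of the cardiomyocyte thin filament. Its probe set 1424967_x_at read 90.6, 95.4 and 98.5 on the negative control arrays, 1794, 1642 and 1768 in TF group 1, 2027, 2015 and 2045 in TF group 2, while TF group 3 read 5493, 5483 and 5523. The 4 groups did not overlap, and the order was negative control, TF group 1, TF group 2 and TF group 3. The changes against the negative control were 4.19, 4.42 and 5.86 on the log2 scale (SE 0.06 each, n = 3 a group; limma adjusted p = 3.95e-10, 2.43e-10 and 1.82e-11). The step from TF group 1 to TF group 2 was small, 0.23 on the log2 scale (95% interval 0.10 to 0.35, limma adjusted p = 0.0411), and lay under the fold threshold. TF group 3 stood 2.71-fold above TF group 2 (limma adjusted p = 2.47e-06) and 3.17-fold above TF group 1 (limma adjusted p = 3.74e-07). The second probe set, 1418726_a_at, read 86.6 to 91.7, 1792 to 1844, 1928 to 2105 and 5338 to 5691 in the 4 groups. It gave folds of 20.4, 22.7 and 61.5 against the negative control, and 2.71 for TF group 3 against TF group 2. Its own step from TF group 1 to TF group 2 was 0.15 (95% interval 0.03 to 0.28) with a limma adjusted p of 0.154, so the neighbours in the order that were not told apart by both probe sets are TF groups 1 and 2. The suffix of 1424967_x_at means that some of its probes may also match other sequences, and that of 1418726_a_at that it reads several transcripts of the gene.

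Tnnc1 is the calcium-binding troponin C that slow skeletal and cardiac muscle share. Its single probe set read 70.9, 93.7 and 70.7 in the negative control, 1962, 1819.8 and 2048 in TF group 1, 1764, 1974 and 1799 in TF group 2, while TF group 3 read 3473, 3995 and 3757. All 9 TF arrays were above all control arrays, TF groups 1 and 2 overlapped, and TF group 3 was above both. The log2 changes were 4.64, 4.57 and 5.59 (SE 0.12; limma adjusted p = 2.23e-08, 1.4e-08 and 4.17e-09). TF group 2 differed from TF group 1 by -0.07 on the log2 scale, with a 95% interval from -0.34 to 0.19. TF group 3 was 2.03-fold higher than TF group 2 and 1.92-fold higher than TF group 1 (limma adjusted p = 0.000816 and 0.000747). For both Tnnt2 and Tnnc1, TF group 3 was highest and the negative control lowest, while TF groups 1 and 2 stood in opposite order by their means. Pearson's r between their log2 signals over the 12 arrays was 0.992, as a description in which the 12 points share 4 group levels.

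Tnnt1, the slow skeletal troponin T, was measurable in a single group. It read 8.40, 8.19 and 25.1 in the negative control, 22.1, 5.23 and 19.5 in TF group 1, while TF group 2 read 25.8, 11.7 and 1.94, and all of these were under the floor. Its TF group 3 arrays read 133.6, 126.7 and 116.4, above every other array. TF group 3 was thus at least 3.92-fold higher than each of the other groups (limma adjusted p = 0.0155 against the negative control, 0.0317 against TF group 2 and 0.0475 against TF group 1). These calls depended on single arrays. The call against the negative control was lost without negative control replicate 1 (log2 change 3.13, adjusted p = 0.0506) or replicate 2 (3.11, adjusted p = 0.0522). Against TF group 2 it was lost when any of 5 arrays was left out, namely TF group 2 replicate 2 or 3 or any array of TF group 3, with log2 changes from 2.85 to 4.15 and adjusted p from 0.0618 to 0.0904. Against TF group 1 it was lost for 10 of the 12 arrays, all but TF group 2 replicates 1 and 3, with log2 changes from 2.59 to 3.63 and adjusted p from 0.0515 to 0.146.

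Tnnt3, the fast skeletal troponin T, was under the floor on all 12 arrays, with signals from 2.72 to 30.7. Its log2 changes of 0.66, 0.44 and 1.90 were not called (limma adjusted p = 0.647, 0.772 and 0.161). In TF group 3 it read 24.1, 19.0 and 30.7, which overlapped the negative control because negative control replicate 1 read 26.5 while replicates 2 and 3 read 3.73 and 2.72. Without negative control replicate 1 the change in TF group 3 was 2.92 with an adjusted p of 0.0251, still between groups that were both under the floor.

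Among the troponin I genes, Tnni1 ran against the order seen for Tnnt2. It read 5.93, 13.5 and 25.6 in the negative control, 159.9, 145.5 and 162.9 in TF group 1, 129.1, 153.2 and 115.6 in TF group 2, while TF group 3 read 31.9, 22.9 and 63.9. TF groups 1 and 2 overlapped and stood above the other groups, and TF group 3 overlapped the negative control. Against the negative control, the rise of Tnni1 was at least 4.87-fold for TF group 1 and 4.12-fold for TF group 2 (limma adjusted p = 0.000319 and 0.000467). The TF group 3 arrays were called higher than the control by a log2 change of 1.505 (adjusted p = 0.0391), a bound of 1.13-fold, and the call was lost for 10 of the 12 arrays left out in turn, all but negative control replicate 3 and TF group 3 replicate 2. Those log2 changes ran from 0.96 (without negative control replicate 1) to 1.59 (without TF group 3 replicate 1), and the adjusted p from 0.0529 to 0.132. TF group 3 was 4.33-fold lower than TF group 1 (limma adjusted p = 0.0229), a call that was lost without any 1 array of TF group 1 or without TF group 3 replicate 1 or 2 (log2 changes from -2.16 to -1.79, adjusted p from 0.0589 to 0.0794). Against TF group 2 the log2 change was -1.87 with an adjusted p of 0.0525, and it became a call without negative control replicate 1 or 3 or TF group 3 replicate 3 (adjusted p from 0.0183 to 0.0379).

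Tnni3 is the troponin I of the adult heart. It read 7.996, 9.95 and 4.15 in the negative control, 13.1, 31.8 and 31.9 in TF group 1, 13.3, 12.8 and 32.3 in TF group 2, while TF group 3 read 24.9, 21.7 and 23.1. All 9 TF arrays were above the 3 control arrays, but 11 of the 12 arrays were under the floor, so no fold is given. The log2 changes of 1.78, 1.35 and 1.75 were called (limma adjusted p = 0.0146, 0.0481 and 0.0157). The call in TF group 1 was lost without negative control replicate 3 or TF group 1 replicate 2 or 3 (adjusted p from 0.0531 to 0.0543), and that in TF group 3 without negative control replicate 3 (log2 change 1.38, adjusted p = 0.0577). In TF group 2 it was lost for 9 of the 12 arrays left out, all but negative control replicate 2, TF group 1 replicate 1 and TF group 2 replicate 2, with log2 changes from 0.91 to 1.55 and adjusted p from 0.0547 to 0.16.

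The fast skeletal partners were dim. Tnni2, the fast troponin I, was read by 3 probe sets, and the brightest of them (1416889_at) lay between 28.8 and 45.8 on the 12 arrays. Its log2 changes were 0.07, -0.08 and -0.06, with 95% intervals that together ran from -0.47 to 0.45, so at the deposited scale a change of over 1.5-fold lay outside them. Of the other 2 probe sets, 1438609_x_at was under the floor on 11 arrays and 1438608_at on all 12, and neither was called. Tnnc2, the fast troponin C, read from 1.74 to 25.1 and was under the floor on all 12 arrays. The array with 25.1 was replicate 1 of TF group 2, and the other 11 were at or below 3.74.

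**Figure D2:**
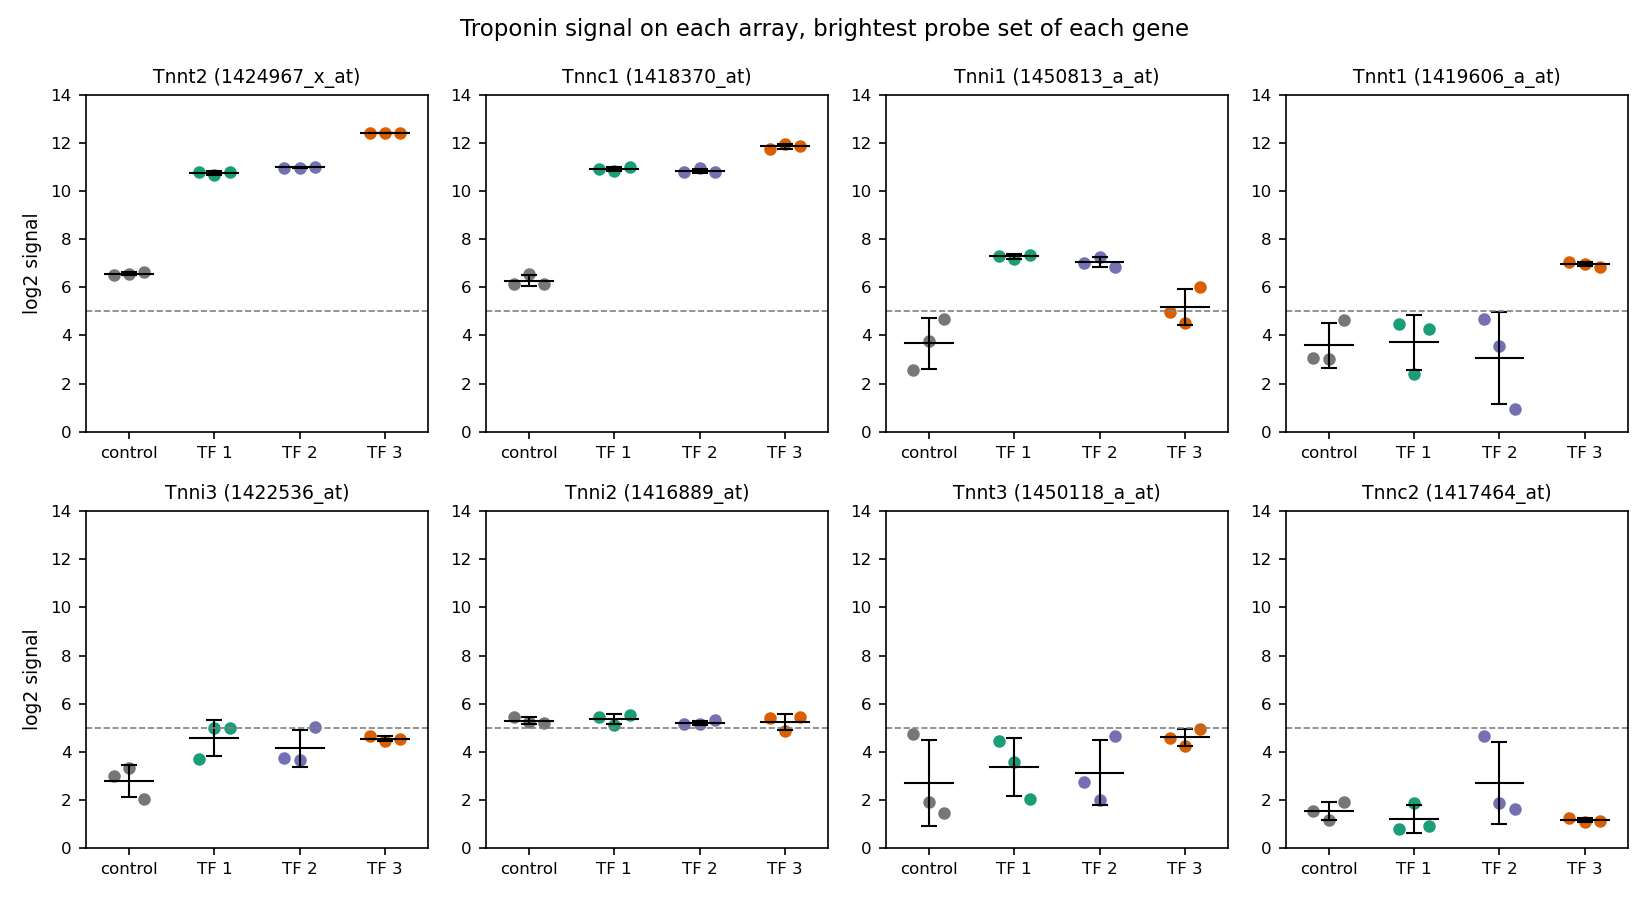
Log2 signal of the brightest probe set of each of the 8 troponin genes on each array, by group (coloured points, arrays; horizontal line and bars, mean ± SD, n = 3; dashed line, the floor at a log2 signal of 5). Tnnt2 and Tnnc1 rise from means of 6.57 and 6.28 in the negative control to 12.43 and 11.87 in TF group 3, Tnni1 is highest in TF groups 1 and 2, and Tnnt1 is above the floor in TF group 3 alone.

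Tpm1 is the tropomyosin of cardiac muscle and is also made by fibroblasts. Its probe set 1423721_at read 8273, 8503 and 9108 in the negative control, 7061, 6733.5 and 6654 in TF group 1, 6715, 6782 and 6983 in TF group 2, while TF group 3 read 9261, 9093 and 9212. TF groups 1 and 2 lay below the negative control without overlap, and TF group 3 overlapped it. The log2 changes were -0.34, -0.34 and 0.09 (SE 0.05; limma adjusted p = 0.000823, 0.00082 and 0.228), all under the fold threshold and so not called. TF group 3 was 1.35-fold higher than both other TF groups (adjusted p = 0.00158 against TF group 2 and 0.000912 against TF group 1), also under the threshold. The probe set 1423049_a_at gave -0.43, -0.43 and -0.01. The dimmer probe set 1456623_at read 484, 475 and 544 in the negative control, 160.2, 201.5 and 189 in TF group 1, 207.5, 205 and 189 in TF group 2, while TF group 3 read 414, 325 and 426. It fell 2.74- and 2.50-fold in TF groups 1 and 2 (limma adjusted p = 1.32e-05 and 2.12e-05). Its change of -0.38 in TF group 3 was not called (adjusted p = 0.0353, a 1.299-fold difference), and that group was 1.92-fold higher than TF group 2 and 2.11-fold higher than TF group 1 (adjusted p = 0.00176 and 0.000521). All 3 probe sets thus put TF groups 1 and 2 below the negative control and TF group 3 above both, by different amounts.

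Tpm2, the beta tropomyosin of slow and smooth muscle and of fibroblasts, was read by 4 probe sets that differed in their changes. The brightest, 1419738_a_at, read 8566, 8313 and 9194 in the negative control, 6735, 6184 and 6268 in TF group 1, 7333, 6726 and 6864 in TF group 2, while TF group 3 read 7845, 7795 and 8934. Its log2 changes of -0.44, -0.32 and -0.09 were not called (limma adjusted p = 0.00113, 0.00741 and 0.416). The changes of 1425028_a_at were -0.58, -0.51 and -0.15, and that in TF group 1 was 1.49-fold, just under the threshold, which it passed without negative control replicate 1 or 2 or TF group 1 replicate 1 (log2 changes of -0.59). The probe set 1419739_at fell 1.87- and 1.71-fold in TF groups 1 and 2 (adjusted p = 0.000386 and 0.000967). In TF group 3 it differed by -0.52 (adjusted p = 0.0103), under the fold threshold, and by -0.59 without negative control replicate 3 (adjusted p = 0.0115), which passed it.

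The fourth Tpm2 probe set, 1449577_x_at, was the only one of the 7 tropomyosin probe sets called lower in TF group 3. It read 3126, 3170.2 and 3200.4 in the negative control, 1233, 1767 and 1043 in TF group 1, 1835, 1453 and 1883 in TF group 2, while TF group 3 read 870.3, 899 and 854. It fell 2.41-, 1.85- and 3.62-fold (limma adjusted p = 0.000285, 0.00247 and 2.31e-05), and TF group 3 was 1.96-fold lower than TF group 2 (adjusted p = 0.00857). Against TF group 1 the log2 change of -0.59 had an adjusted p of 0.0549, and was -0.76 with an adjusted p of 0.0211 without TF group 1 replicate 3. Without TF group 1 replicate 2 the difference between TF groups 2 and 1 became a call (log2 change 0.59, adjusted p = 0.0306). The suffix of this probe set again marks probes that may match other sequences, and which transcripts it reads is not given in the sources used here.

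**Figure D3:**
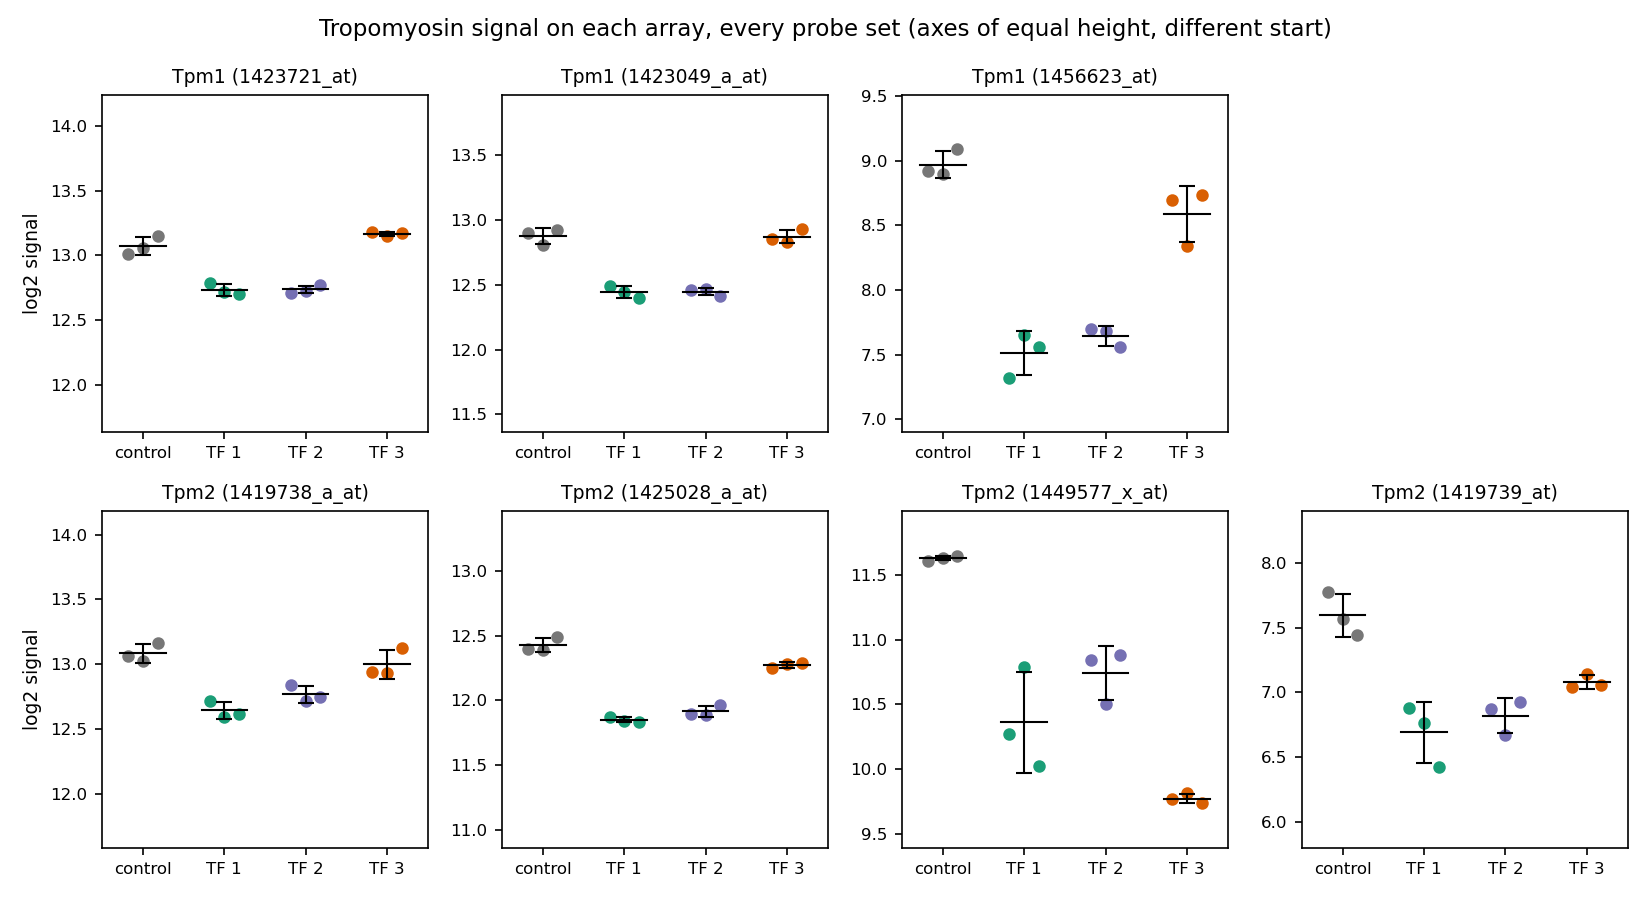
Log2 signal of the 3 Tpm1 and 4 Tpm2 probe sets on each array, by group (coloured points, arrays; horizontal line and bars, mean ± SD, n = 3); the vertical axes span the same height and start at different values. In 6 of the 7 panels TF group 3 lies above TF groups 1 and 2, and in the panel of 1449577_x_at it lies below them.

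Probe sets of 1 gene were compared within each array, so that scaling between arrays cancels. The difference between the log2 signals of 2 probe sets was compared between all 9 TF arrays and the 3 control arrays, with a two-sided exact permutation test over the 220 ways to split them, in which the smallest p is 0.00455. The 9 TF arrays come from 3 groups with different factors, so differences between these groups add to the spread in this test. Of 13 such pairs, 6 had a Benjamini-Hochberg adjusted p under 0.05 over the 13, all of them within Tpm1 or Tpm2. Most of the 13 pairs are of these genes. The rest are that of Tnnt2 and those of Tnni2, which each include a probe set under the floor on 11 or 12 arrays. For Tpm1, 1456623_at fell 0.86 more than 1423721_at (exact p = 0.00455, adjusted p = 0.0197), by 1.12, 0.98 and 0.47 in TF groups 1, 2 and 3. The 2 bright Tpm1 probe sets differed from each other by 0.10 (exact p = 0.00909, adjusted p = 0.0295). For Tpm2, 1449577_x_at fell 1.05 more than 1419738_a_at (exact p = 0.0136, adjusted p = 0.0354), by 0.83, 0.57 and 1.77 in the 3 TF groups. The 2 probe sets of Tnnt2 differed in their change by -0.11 (exact p = 0.0318, adjusted p = 0.0591), small beside changes of 4.82 and 4.93.

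Pairs of genes were compared in the same way, 11 in all. Tpm1 and Tpm2, by their brightest probe sets, changed by -0.19 and -0.28 over the 9 TF arrays, a difference of 0.09 (exact permutation p = 0.218, adjusted p = 0.307 over the 11 pairs). By group this difference was 0.10, -0.02 and 0.18 in TF groups 1, 2 and 3. Tnni1 and Tnnt2 lie on chromosome 1 with 1 annotated gene, Lad1, between them. No difference between their changes is given, since all 3 Tnni1 control arrays were under the floor. Of the other pairs, 5 had an adjusted p under 0.05, and each of them includes a gene that was under the floor on at least 1 array, so that these differences are not given. Tnni3 and Tnnt1 are direct neighbours on chromosome 7, and Tnni2 and Tnnt3 lie on that chromosome with Lsp1 and Prr33 between them. Of 7 measured genes next to the troponin genes, Lsp1 was called, 1.68-, 1.91- and 1.93-fold lower in the 3 TF groups, and the other 6 were not called in any of the 6 comparisons.

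The genes whose log2 signals were most like those of a member over the 12 arrays are named by Pearson's r, as a description with no test. They were C1ql3 (0.9966), Dusp3 (0.9962) and Nupr1 (0.9946) for Tnnt2, and Vnn1 (0.9972), Tgoln1 (0.9966) and Bex1 (0.9956) for Tnnc1. For Tnni1 the closest was Ubxn1 (0.9759) and for Tnnt1 Arhgap20 (0.9459). For Tpm1 they were Tgfb3 (0.9873), Ece2 (0.9824) and Bdnf (0.9797), and for Tpm2 the closest was Uimc1 (0.9579). Tpm1 and Tpm2 had an r of 0.868 with each other, and Tnnt2 and Tpm1 one of -0.147. Such values rest largely on the 4 group levels.

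The partners of troponin and tropomyosin on the sarcomeric thin filament were taken as a list of 20 genes, of which 18 were measured. In TF groups 1, 2 and 3, 3, 5 and 5 of them were called higher and 1, 1 and 1 lower. Of all 12393 genes, read in the same way by their brightest probe set, 15.1%, 15.3% and 14.7% were called higher and 8.93%, 10.1% and 9.84% lower, so the counts in TF group 1 lay near the background. The median log2 change was 0.02, 0.14 and 0.04, beside 0.07, 0.06 and 0.05 over all genes. The sarcomeric actins parted. Actc1, cardiac actin, rose 1.88-fold with TF group 2 and 12.7-fold with TF group 3 (limma adjusted p = 0.0105 and 1.78e-06) and its log2 change for TF group 1 was 0.51 (adjusted p = 0.115). Acta1, skeletal actin, was 6.62-, 6.35- and 2.61-fold lower in the 3 TF groups (adjusted p = 5.07e-08, 3.82e-08 and 1.49e-06). Fhod3, a formin that assembles sarcomeric actin, was 10.1-, 23.2- and 14.1-fold higher, and Ldb3, a Z-disc protein, 9.60-, 11.8- and 11.9-fold higher. Csrp3, a muscle LIM protein, was at least 2.31-, 3.24- and 3.12-fold higher. Lmod2, which lengthens cardiac thin filaments, rose at least 2.98-fold with TF group 2 and was not called for the others, where it was under the floor. Tmod1, which caps the pointed end of the filament, was 1.80-fold higher in TF group 3 alone (adjusted p = 0.00208). Between TF groups 3 and 2, 3 of the 18 partners were called higher and 2 lower. Of all genes 2.32% were called higher there, and of all probe sets 1.39% lower. The 2 lower were Fhod3 (1.65-fold, limma adjusted p = 0.000666) and Lmod2 (at least 2.98-fold, adjusted p = 0.0158).

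A second list held 17 actin regulators of smooth muscle and non-muscle cells, the setting in which Tpm1 and Tpm2 are made by fibroblasts, and 14 of them were measured. None was called higher in TF groups 1 and 2 by limma, and 4 were called lower in each, of which only some are named below. In TF group 3, 2 were called higher and 1, which is not named below, lower, beside the shares of all genes given above. Against TF group 2, 4 were called higher, where 2.32% of all genes were. The median log2 change against the negative control was -0.36, -0.30 and -0.04, beside 0.07, 0.06 and 0.05 over all genes. The related tropomyosin genes Tpm3 and Tpm4 were not called against the negative control. Nor was Acta2, with log2 changes of -0.02, -0.11 and 0.06 in TF groups 1, 2 and 3. Actg2, smooth muscle actin, was 3.03- and 2.29-fold lower in TF groups 1 and 2, and TF group 3 exceeded TF group 2 by 3.33-fold. Cnn1, the smooth muscle calponin that binds actin and tropomyosin, was 2.52- and 2.42-fold lower, and the step from TF group 2 up to TF group 3 was 1.80-fold. Mylk, the myosin light chain kinase of smooth muscle, was not called in TF groups 1 and 2 and rose 5.84-fold with TF group 3 (limma adjusted p = 1.98e-08). Lmod1, the leiomodin of smooth muscle, fell 1.74-fold with TF group 1 and rose 1.52-fold with TF group 3. Between TF groups 3 and 1, 4 genes of the list were called higher too, where 3.04% of all probe sets were. The ordering of TF group 3 above the other TF groups was thus found in 4 genes of this list and in 1 of the 3 Tpm1 probe sets at the same thresholds. None of the 4 Tpm2 probe sets was called in that order. Against TF group 2, Tpm2 1449577_x_at was called in the opposite direction (log2 change -0.97, limma adjusted p = 0.00857).

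**Figure D4:**
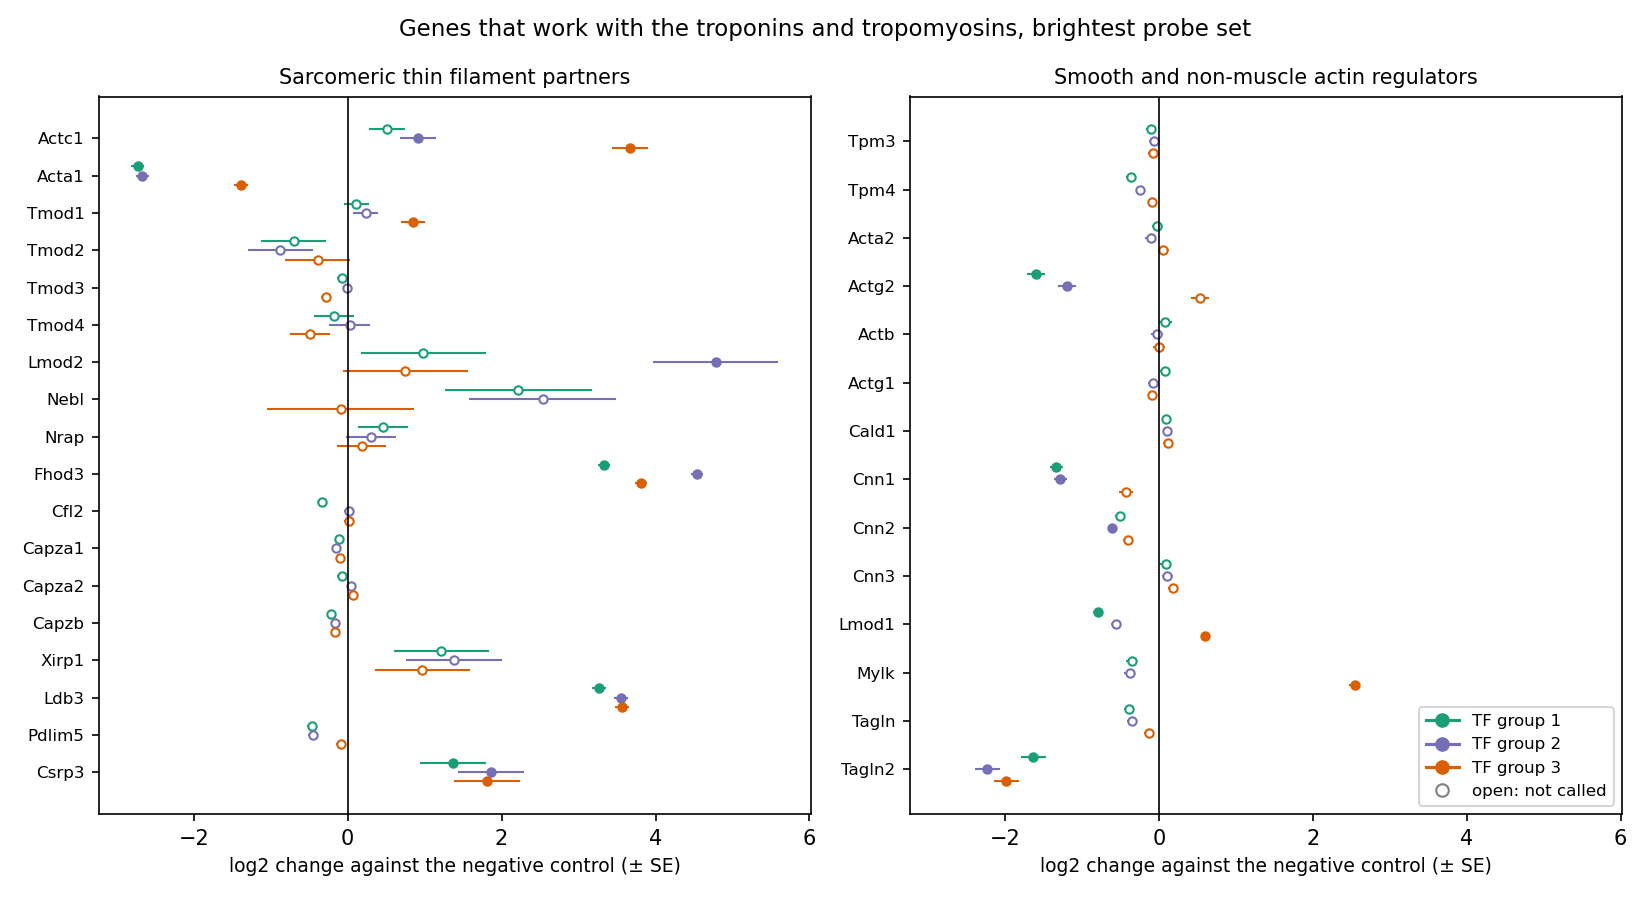
Log2 change against the negative control of 18 thin filament partners (left) and 14 smooth and non-muscle actin regulators (right) in TF groups 1, 2 and 3, by the brightest probe set of each gene (points, limma estimates; bars, SE; filled points, called). Fhod3 and Ldb3 lie above 3 in each TF group, Acta1 lies below -1 in each, and Mylk is called in TF group 3 alone.

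Markers of the cell types that a culture of MEFs could hold were read beside these results. For comparison, 15.1%, 15.3% and 14.7% of all genes were called higher in TF groups 1, 2 and 3, and 8.93%, 10.1% and 9.84% lower. All 8 fibroblast markers were at or over the floor in every group, and 1, 2 and 2 of them were called lower in TF groups 1, 2 and 3. Of 10 cardiomyocyte markers, 4, 4 and 6 were called higher, and Myl2, a cardiac myosin light chain, was called lower in TF group 1, where it was under the floor. Their summed signal ran from 574 to 609 in the negative control, 939 to 998 in TF group 1, 1384 to 1495 in TF group 2 and 4848 to 5607 in TF group 3. Myh6, the cardiac myosin heavy chain, was under the floor in the other groups and rose at least 6.49-fold with TF group 3, and Actn2 was not called. Of 10 skeletal myogenic markers, 1, 2 and 2 were called higher in TF groups 1, 2 and 3, and none lower. Myog, Myf6 and Myh4 had means under the floor in every group, Ckm was not called, and Myh1 was 10.2-, 23.9- and 11.1-fold higher. Of 6 smooth muscle markers, Cnn1 and Smtn were called lower in TF groups 1 and 2, Des was called higher in TF groups 2 and 3, and Myh11 in TF group 3. Called higher in TF groups 1, 2 and 3 were 1, 0 and 0 of 5 endothelial, 0, 0 and 0 of 4 macrophage, 2, 1 and 2 of 4 epithelial and 2, 2 and 2 of 4 neuronal markers, and none of these was called lower. The part of each cell type in the troponin signals was not tested, and in RNA of a whole culture more cells that express a gene and more of its RNA per cell cannot be told apart.

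The trimmed mean was 500 on each array as deposited, but the medians differed between control and TF arrays. They were 139.6, 131.5 and 133.4 in the negative control and ran from 143.1 to 149.7 on the 9 TF arrays, without overlap. From 20.45% to 24.17% of probe sets were under the floor, and r between replicates was 0.9601 to 0.9656. The poly-A RNA spikes, which are added to each sample, read 0.81 higher on the log2 scale on the 9 TF arrays than on the control arrays, and 18S rRNA 1.19 higher (exact permutation p = 0.00455 for each, the smallest that 220 splits can give). With the arrays scaled to the spikes, the median of all probe sets moved to -0.84, -0.69 and -0.74 in the 3 TF groups, and 4.30%, 7.58% and 6.19% of the calls were higher, in place of 60.1%, 57.9% and 59.2%. Centring each array on its median gave 45.7%, 47.6% and 46.7%. Tnnt2 still rose under spike scaling, by 3.29, 3.68 and 5.07 on the log2 scale, and Tnnc1 by 3.74, 3.83 and 4.79. The calls of Tnni3 were lost in all 3 TF groups (log2 changes of 0.88, 0.61 and 0.95, limma adjusted p = 0.136, 0.306 and 0.117), and that of Tnni1 in TF group 3 (0.71, adjusted p = 0.317). Between TF groups 3 and 2 the call of Tnnc1 was lost (0.96, adjusted p = 0.171), as was that of Tnnt1 (3.85, adjusted p = 0.092), and between TF groups 3 and 1 those of Tnnc1 (1.05, adjusted p = 0.0737), Tnnt1 (3.36, adjusted p = 0.0931) and Tnni1 (-2.01, adjusted p = 0.129). The difference between TF groups 3 and 2 was also no longer called for Tpm1 1456623_at (0.89, adjusted p = 0.097) and Tpm2 1449577_x_at (-1.02, adjusted p = 0.103). Under that scaling all 7 tropomyosin probe sets were called lower in each TF group, and Tpm1 1423721_at in TF group 3 turned from 0.09 to -0.70. The part of the spike difference in the results was not tested.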

How the data were processed

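Total RNA of 12 MEF cultures (4 groups, 3 arrays each) was hybridised to Affymetrix Mouse 430A 2.0 arrays. The deposited values are 1 linear signal intensity per probe set and array, and their trimmed mean (2% left out at each end) is 500 on every array. Per the labels and the study's methods the authors used RMA and Partek, which give log2 values, so the step that made this linear intensity is not given in the sources used here. No counts exist for arrays, and their number (3 a group) limits the precision.

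The deposited intensity was taken to log2 in R 4.3.3. The 64 control probe sets were left out, which left 22626, of which 20380 carry 1 gene symbol, 691 several and 1555 none in the platform annotation of 2016. limma 3.58.1 was fitted with 1 mean per group over all 12 arrays, without covariates, and p-values were adjusted by Benjamini and Hochberg over all 22626 probe sets in each of 6 comparisons. A call needed an adjusted p under 0.05 and a fold over 1.5. The fit was tested on simulated data. A gene of a list was read by its brightest probe set. All 10 genes are named with every probe set, and of the lists only some of the called genes are named. The genes, lists and floor were chosen with earlier results of these data known. Replicate numbers did not pair the arrays: in 18 same-numbered pairs, 0 had a correlation of deviations over 0.1. Promoters and gene order came from RefSeq (GRCm38.p6), and no window of Tnnt3 and Tnni2 was used here. Alternatives were other scalings, an offset, a filter on dim probe sets, other variance models, a replicate block, other call rules and leaving out each array.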

Additional observations from a re-analysis of the deposited data

How the results depend on the processing

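Of 2448 recomputed log2 changes of single probe sets, 2316 kept their side of the thresholds, 72 lost a call and 58 gained one. Changes of sign with no call in either fit count among the 2316, as for Tnnt1 in TF group 1 under spike scaling (0.13 to -0.77). Another 2 changed sign and were called under the alternative only. Both of these came with scaling to the poly-A spikes (Tnni2 1416889_at in TF group 1 from 0.07 to -0.83, Tpm1 1423721_at in TF group 3 from 0.09 to -0.70). That scaling also made the count of probe sets called lower 8, 8 and 8 in TF groups 1, 2 and 3 against the negative control and the count called higher 4, 4 and 4 (Tnni3 lost in each, Tnni1 in TF group 3), and between TF groups 3 and 2 left 2 higher and 0 lower, and between TF groups 3 and 1 left 3 higher and 0 lower; the cause was not tested. With no fold threshold, 7, 7 and 4 were lower in the 3 TF groups, 1 was higher between TF groups 2 and 1, 8 between TF groups 3 and 2 and 9 between TF groups 3 and 1, since smaller changes then count. Median centring and quantile normalization each called 2 lower in TF group 3 against the control. Median centring also called Tpm2 1425028_a_at lower in TF groups 1 and 2 (log2 changes of -0.71 and -0.62). It lost the calls of Tnni3 in TF group 2 and of Tnni1 in TF group 3. The offset of 50 lost those of Tnni3 in TF groups 1, 2 and 3 (0.39, 0.27 and 0.35). It also lost those of Tnni1 in TF group 3 (0.45) and Tpm2 1419739_at in TF group 2 (-0.58). Between TF groups 3 and 2, the count called lower was 2 with quantile normalization, an offset of 50, the filter on dim probe sets, an intensity trend, array weights and the unmoderated model, and between TF groups 3 and 1 it was 2 with the filter, the trend and the unmoderated model. Leaving out 1 array gave 1 to 2 lower in TF group 3 against the control (2 without negative control replicate 3), 0 to 1 higher between TF groups 2 and 1 (1 without TF group 1 replicate 2), 1 to 2 lower between TF groups 3 and 2 (2 without negative control replicate 1 or 3 or TF group 3 replicate 3), and 0 to 1 lower between TF groups 3 and 1 (0 without TF group 1 replicate 1 or 2 or TF group 3 replicate 1 or 2). Counts called higher fell as well where Tnnt1, Tnni1 or Tnni3 lost a call, as given above. Without negative control replicate 2, for example, TF group 3 lost those of both Tnnt1 and Tnni1 against the control (limma adjusted p = 0.0522 and 0.0768). With the replicate block, 4 probe sets in place of 5 were called higher in TF group 2 against the control and in TF group 3 against TF groups 2 and 1, and no other count changed. Signals under 32 limit what can be said of Tnnt3, Tnni3 and Tnnc2, and of Tnnt1 outside TF group 3.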
